A study of Mus musculus with 18 samples.

Results

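Most of the 9 genes described here encode parts of the machinery that docks insulin granules at the plasma membrane and fuses them with it. These are the synaptotagmins Syt4, Syt7 and Syt13, the SNARE proteins Snap25, Stx1a and Vamp2, and the granule GTPases Rab3a and Rab27a. Vat1l, a membrane-associated oxidoreductase-like protein, was listed with them, and no part in docking or fusion is assigned to it here. The 9 genes were chosen by name, with earlier results of these data known, out of 17208 genes with a read in at least 1 library. Counts of them called beside all genes are therefore a description and not an independent test. Their values were summed over the RefSeq transcripts of each gene. The genes were measured in MIN6 cells, a mouse insulinoma line used as a model of the pancreatic beta cell, by mRNA-seq of poly(A) RNA and by Ribo-seq of ribosome-protected fragments. Control cells received DMSO for 18 h, and the other cells received 200 µM cyclopiazonic acid (CPA), an inhibitor of the pump that loads the endoplasmic reticulum with calcium, for 1 h (CPA1) or 18 h (CPA18). Each treatment was carried out in 3 independent experiments, which gave 18 libraries. The 1 h samples were compared with the 18 h DMSO control, so exposure time differed as well as CPA, and a single tumour line stands for the beta cell in all of them.

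Regulated exocytosis works by the assembly of a SNARE bundle, in which Vamp2 on the granule pairs with Stx1a and Snap25 on the plasma membrane. Synaptotagmins are granule or vesicle proteins with paired C2 domains. Syt7 is a high-affinity calcium sensor that couples calcium entry to insulin release, whereas Syt4 and Syt13 do not bind calcium in the manner of the classical sensors. Rab3a and Rab27a bind granules in their GTP form and recruit effectors that tether granules to the membrane.

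Counted reads per library ranged from 520960 to 4755030 in mRNA-seq and from 168129 to 1083297 in Ribo-seq, and the CPA18 Ribo-seq libraries held only 168129, 203108 and 553842. The descriptions of the control mRNA-seq and control Ribo-seq libraries of experiment 2 name the opposite assay to their titles, and both were placed by title. Over log2(RPKM + 0.5) of all tested genes, the library titled control mRNA-seq of experiment 2 had a mean Pearson r of 0.928 with the other control mRNA-seq libraries and 0.830 with the control Ribo-seq libraries. The control mRNA-seq library of experiment 1, the shallowest of that assay, stood apart, with a mean r of 0.889 with its own assay and 0.898 with Ribo-seq. Results that changed without these control libraries are given with both values. All 10 beta-cell markers on a fixed list were read in both assays, while the summed counts of 6 exocrine and stromal markers did not exceed 9 in any library, nor did those of the leukocyte markers Ptprc and Cd68, of which Ptprc had no read. The 7 markers of other islet endocrine cells had summed counts of 22 to 329 per library, and their summed RPKM was between 42.95 and 117 in control mRNA-seq and between 23.8 and 91.4 in CPA18. The summed RPKM of the beta-cell markers was between 384590 and 456358 in control Ribo-seq libraries and between 159185 and 180719 in CPA18. In CPA18 against control, 9 of the 10 were called lower in each assay, beside 7.89% of all genes in mRNA-seq and 6.25% in Ribo-seq. Scaled to library totals, the median gene stood 0.38 (mRNA-seq) and 0.42 (Ribo-seq) above control on the log2 scale in CPA18, and changes are given beside that shift or with TMM scaling, which centres most genes near 0. The part of the lower marker transcripts in the values of each gene was not tested, and fewer cells of a kind and less RNA per cell cannot be told apart in these bulk samples.

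The reads of a gene are divided among its transcripts, and for Snap25 and Syt7 the transcripts differ by exons that are shown here because they limit what the counts can separate. Snap25 (chromosome 2, 136713450 to 136782428, GRCm38.p6, plus strand) carries a pair of mutually exclusive exons of 118 bases each. They encode alternative versions of the stretch around the cysteines through which the protein is anchored to the membrane. The upstream exon is used by 1 of the 4 RefSeq transcripts and the downstream exon by the other 3. Capitals mark the 31 of 118 bases (26.3%) at which they differ, 5′ to 3′:
Snap25 upstream exon, chr2:136769743-136769860: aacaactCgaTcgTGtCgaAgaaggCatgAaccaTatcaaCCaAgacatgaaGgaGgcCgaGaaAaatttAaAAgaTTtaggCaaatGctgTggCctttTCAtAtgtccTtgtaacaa
Snap25 downstream exon, chr2:136770057-136770174: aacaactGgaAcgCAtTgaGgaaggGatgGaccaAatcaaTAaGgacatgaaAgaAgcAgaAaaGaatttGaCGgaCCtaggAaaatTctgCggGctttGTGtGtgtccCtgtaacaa
The longest run of bases that both exons share is 8, so fragments of 28 bases inside the exons tell them apart, but only 6.21% of the 28-base stretches of the upstream-exon transcript are found in no other transcript. Reads outside the exon pair were therefore assigned among transcripts by the alignment. Of all Snap25 Ribo-seq reads, 74 of 251 in control, 43 of 129 in CPA1 and 14 of 102 in CPA18 were assigned to the upstream-exon transcript. By library the share ran from 26.6 to 32.4% in control and from 7.41 to 22.7% in CPA18, whereas in mRNA-seq it ran from 19.2 to 36.4% and from 26.04 to 41.2%. These shares rest on few reads, were picked after the values were seen, and were not tested.

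Syt7 (chromosome 19, 10389090 to 10453181, plus strand) has 3 RefSeq transcripts, which differ by exons in the linker between the membrane segment and the C2 domains. Only the shortest, of 9 exons, had a read in all 18 libraries, so it alone entered the main test. The transcript of 10 exons adds an exon of 132 bases, shown in lower case with no part marked, and the longest, of 11 exons, lacks it and adds a pair of other exons instead:
Syt7 linker exon, chr19:10421757-10421888: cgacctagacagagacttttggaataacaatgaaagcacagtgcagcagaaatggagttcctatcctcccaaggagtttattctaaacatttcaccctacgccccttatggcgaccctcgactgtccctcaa
Only 0.364% of the 28-base stretches of the shortest transcript were found in no other transcript, so its count depends on how shared reads were assigned. For this reason Syt7 is also given as the sum of its 3 transcripts.

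The other genes lie on chromosome 18, 31437808 to 31447415, minus strand (Syt4), chromosome 2, 92915101 to 92956051, plus strand (Syt13), chromosome 5, 135023482 to 135051100, plus strand (Stx1a), chromosome 11, 69088528 to 69092381, plus strand (Vamp2), chromosome 8, 70754703 to 70758608, plus strand (Rab3a), chromosome 9, 73044810 to 73097614, plus strand (Rab27a), and chromosome 8, 114205640 to 114374070, plus strand (Vat1l). At most 2.32% of the 28-base stretches of any of their transcripts occurred in another gene. All 9 genes had reads in every library when their transcripts were summed. Of their 19 transcripts, 15 had a read in every library, and neither transcript of Stx1a did, so 8 genes were tested among 6929 and Stx1a was tested only in an added fit that filters on genes.

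In control cells, Syt13 had the highest mRNA-seq level, with an RPKM of 186 ± 29.4 (SD, n = 3, as for all means of RPKM here). Rab3a (125 ± 71.4) and Vamp2 (124 ± 40.8) followed, and their ranges overlapped with each other and, for Rab3a, with Syt13. Vat1l (38.3 ± 5.49) lay apart from Vamp2 above it and Rab27a (17.6 ± 6.76) below it. The ranges of the next neighbours overlapped: Rab27a, Stx1a (15.5 ± 16.6), Syt4 (8.03 ± 5.41), Snap25 (6.95 ± 2.64) and Syt7 (6.09 ± 2.28). The order differed in Ribo-seq. Syt13 (155 ± 29.3) was again highest and clear of Rab3a (92.0 ± 12.2), but Vamp2 (61.3 ± 15.1), Vat1l (47.6 ± 4.77), Snap25 (41.6 ± 4.45) and Syt4 (38.2 ± 2.29) formed a run in which neighbours overlapped. Rab27a (28.5 ± 4.73) lay below Syt4, and Syt7 (4.99 ± 0.645) and Stx1a (3.595 ± 0.890) were the lowest and overlapped. RPKM divides by the whole transcript, and footprints fall on coding sequence, which makes up from 16.2% (Vamp2) to 49.3% (a Rab3a transcript) of the RefSeq models used here, some of them shorter than the deposited lengths, so Ribo-seq levels of different genes are not on a common scale of ribosomes per codon.

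**Figure D1:**
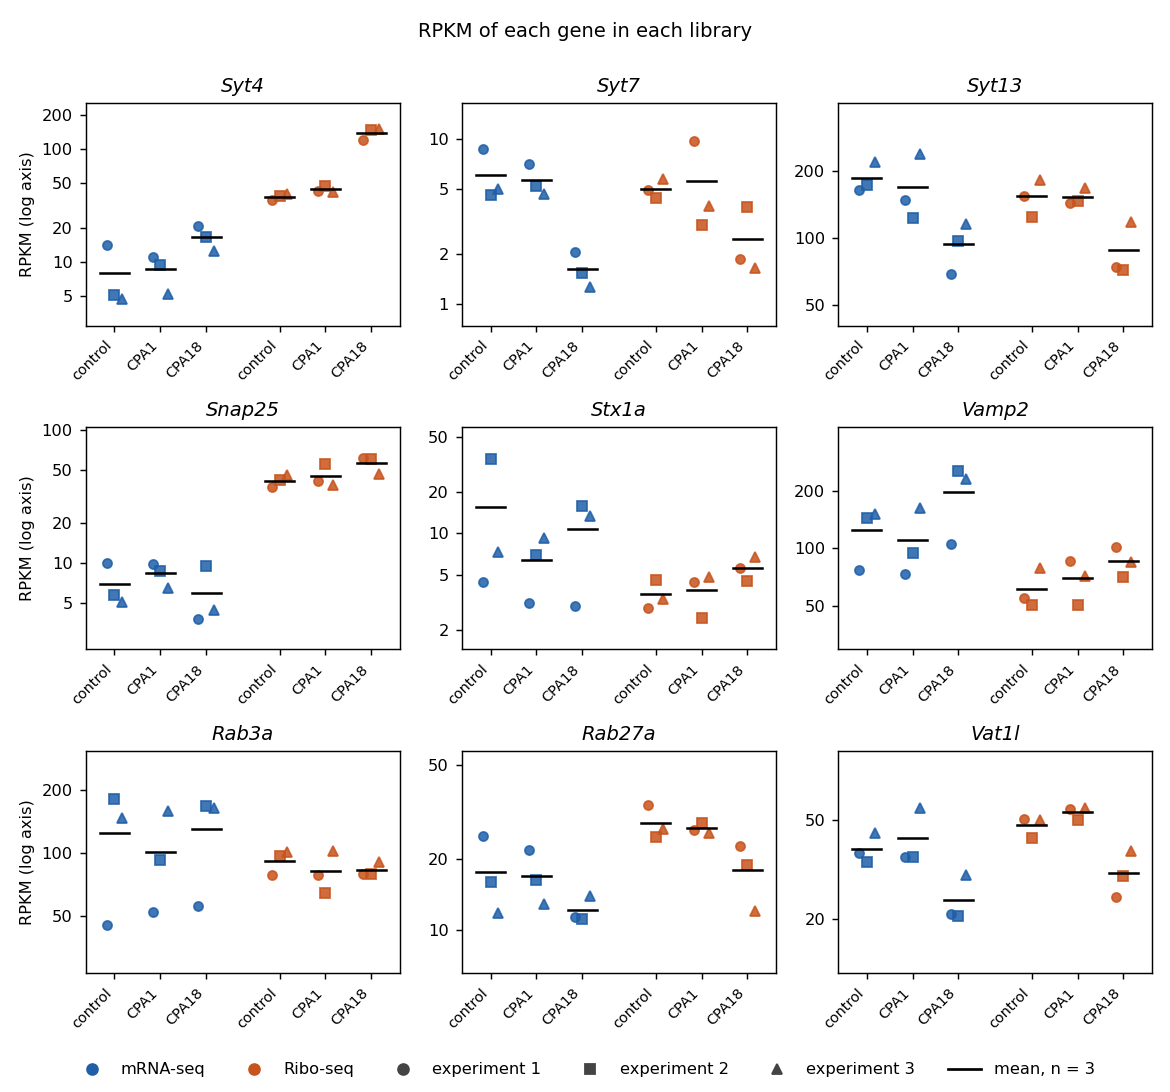
RPKM (log axis) of the 9 genes in each of the 18 libraries, by treatment, with mRNA-seq in blue, Ribo-seq in orange, a marker shape for each experiment and a bar for the mean of 3. Syt4 footprints in CPA18 lay between 122 and 152, above all control and CPA1 libraries, whereas Syt13 and Vat1l in CPA18 lay below all of them in both assays.

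The comparison of CPA18 with control asks what 18 h of CPA did to these transcripts and to their ribosome load. Syt4 was higher in both assays, Syt13 and Vat1l were lower in both, Syt7 mRNA was lower, Rab27a footprints were lower and Vamp2 mRNA was higher, while Snap25 and Rab3a were not called in either assay. In mRNA-seq, edgeR with the experiment as a block called 2 of the 8 tested genes higher and 3 lower (adjusted p under 0.05), beside 27% of all genes higher and 7.89% lower. In Ribo-seq it called 1 higher and 3 lower, beside 25.6% and 6.25% of all genes. The 8 genes had a median log2 change of -0.25 at the level of mRNA and -0.22 for footprints, beside 0.38 and 0.42 over all genes. TMM scaling turned the split over all genes from 1874 higher and 547 lower to 1129 and 1110 in mRNA-seq, and from 1772 and 433 to 824 and 848 in Ribo-seq. The split among the 8 genes became 1 higher and 4 lower in mRNA-seq and stayed at 1 and 3 in Ribo-seq. Without the block, edgeR called 0 of the 8 genes in mRNA-seq (2 at an unadjusted p under 0.05, and 5 by DESeq2 and 4 by limma with the block), where 99 and 38 genes of all were called, and in Ribo-seq Syt4 stayed higher and Syt13 lower.

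**Figure D2:**
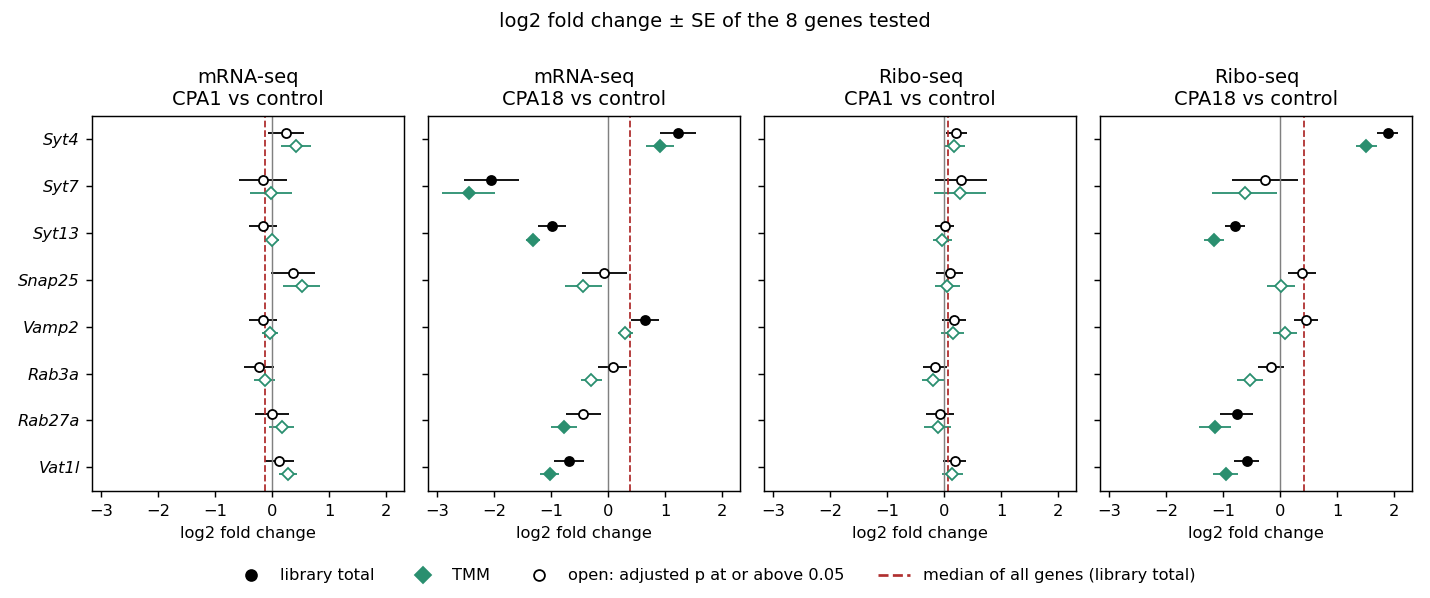
Log2 fold change against control with its standard error (bars) for the 8 genes tested, at 1 h and 18 h of CPA in mRNA-seq and Ribo-seq, scaled to library totals (circles) or by TMM (diamonds), filled where the adjusted p was under 0.05. The dashed line is the median of all 6929 genes on library totals. Syt4 lies to the right of that line and Syt13 and Vat1l to the left of it at 18 h, and no symbol is filled at 1 h.

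Syt4, a synaptotagmin found on dense-core granules, had a Ribo-seq RPKM of 35.6, 38.9 and 40.0 in the control libraries of experiments 1 to 3. Its values were 43.0, 47.7 and 41.9 in CPA1, and 122, 148 and 152 in CPA18. The CPA18 libraries lay far above all others, and the control and CPA1 libraries also did not overlap. The footprints of CPA18 were 3.69-fold those of control (log2 change 1.88 ± 0.18, SE, edgeR adjusted p = 1.24e-15), against 1.23e-08 without the block. With TMM scaling the log2 change was 1.51 (adjusted p = 5.79e-11), and it passed the test in all 22 alternatives, with the change between 1.51 and 1.94. Syt4 mRNA-seq values were 14.3, 5.14 and 4.68 RPKM in control, 11.3, 9.49 and 5.28 in CPA1, and 20.8, 16.6 and 12.5 in CPA18. CPA18 was higher than control within each experiment, but the control library of experiment 1, which stood apart above, overlapped the CPA18 group. The mRNA change of 1.22 ± 0.31 (adjusted p = 0.000789, 2.34-fold) was 0.90 with TMM scaling (adjusted p = 0.0133). It was not called without the block (adjusted p = 0.235), nor without the control library of experiment 2 (0.96, adjusted p = 0.0643), nor without experiment 3 (1.12, adjusted p = 0.0687).

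Syt13, a synaptotagmin expressed in endocrine cells and the most abundant of the 9 genes in control, moved the other way. Its mRNA-seq RPKM was 166, 173 and 220 in control, 149, 124 and 240 in CPA1, and 68.9, 97.4 and 116 in CPA18, so that all CPA18 libraries lay below all others. Its Ribo-seq RPKM was 155, 125 and 184 in control, 144, 148 and 169 in CPA1, and 74.6, 72.2 and 118 in CPA18, again without overlap. The fall was 1.99-fold in mRNA-seq (log2 -0.99 ± 0.24, adjusted p = 0.000536, edgeR) and 1.73-fold in Ribo-seq (-0.79 ± 0.18, adjusted p = 0.000182). Without the block the Ribo-seq call held (adjusted p = 0.00734), and the mRNA-seq call did not (adjusted p = 0.276). Both calls held when any single library or any whole experiment was left out.

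Syt7 transcripts were few, with 15 to 79 reads per mRNA-seq library and 2 to 40 per Ribo-seq library. Summed over its transcripts, the mRNA-seq RPKM was 8.70, 4.55 and 5.004 in control, 7.10, 5.18 and 4.66 in CPA1, and 2.08, 1.54 and 1.26 in CPA18, with no overlap of CPA18 and the other groups. The main test, on the shortest transcript, gave a 4.15-fold fall (log2 -2.05 ± 0.48, adjusted p = 0.000277). With limma the change was -1.25 on log2(RPKM + 0.5) (adjusted p = 0.00688) and -0.93 on log2(RPKM + 1), scales that shrink changes of low genes, and the sum of transcripts gave -1.84 ± 0.34 in edgeR (adjusted p = 7.74e-06). Without the block the adjusted p was 0.0838 for the shortest transcript. The Ribo-seq RPKM was 4.88, 4.41 and 5.68 in control, 9.73, 3.03 and 3.93 in CPA1, and 1.88, 3.87 and 1.66 in CPA18. Each CPA18 library was below each control library, on 2, 5 and 6 reads. The Ribo-seq change was -0.27 ± 0.59 on the shortest transcript (adjusted p = 0.762, 95% interval -1.42 to 0.88) and -1.15 ± 0.47 on the sum (adjusted p = 0.0482), but the same sum was not called with no filter (adjusted p = 0.0864), and of 21 alternatives 1 called a fall.

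Within a library the ratio of Syt4 to Syt13 needs no scaling to a library total. This ratio was chosen after the values were seen and was not tested. In Ribo-seq it was 0.230, 0.310 and 0.218 in control, 0.299, 0.322 and 0.248 in CPA1, and 1.64, 2.05 and 1.28 in CPA18. Syt4 thus passed from below Syt13 to above it on the RPKM scale in every experiment, for genes whose coding share of the transcript was alike (32.8 and 34.2%). In mRNA-seq the ratio was 0.0861, 0.0297 and 0.0213 in control and 0.303, 0.170 and 0.108 in CPA18, a rise in each experiment that left Syt4 below Syt13.

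**Figure D3:**
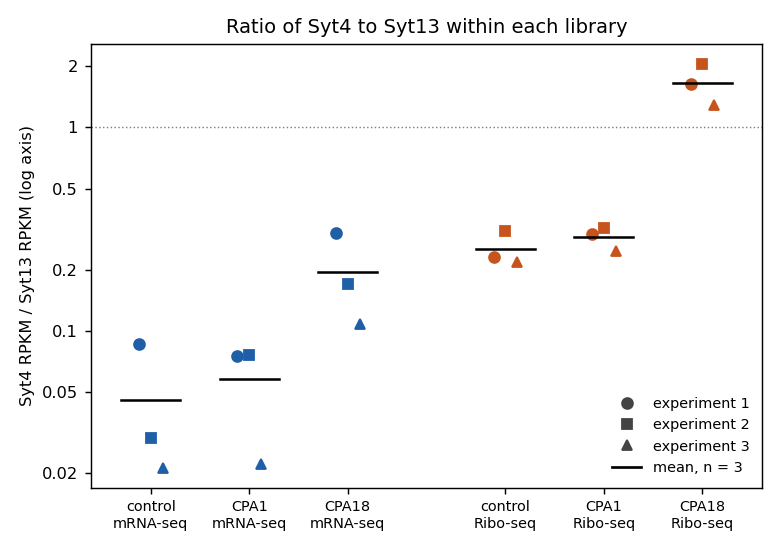
Ratio of the Syt4 RPKM to the Syt13 RPKM (log axis) in each library, by treatment and assay, with a bar for the mean of 3 experiments and a dotted line at 1. In Ribo-seq the CPA18 libraries lie between 1.28 and 2.05 and the control libraries between 0.218 and 0.310.

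Of the SNARE genes only Vamp2 mRNA was called on library totals. Vamp2, the granule SNARE, had an mRNA-seq RPKM of 77.2, 144 and 151 in control, 73.3, 94.99 and 164 in CPA1, and 106, 255 and 231 in CPA18. The groups overlapped, because experiment 1 was low in all treatments, but CPA18 was highest within each experiment. The mRNA change of 0.64 ± 0.24 (1.56-fold, edgeR adjusted p = 0.028) was 0.26 above that of the median gene. It was 0.30 with TMM scaling (adjusted p = 0.111) and 0.42 with library totals without Ins1, Ins2 and Lars2 (adjusted p = 0.018), and it was called in 6 of 22 alternatives. It was not called without the block (adjusted p = 0.48), without any of the experiments (adjusted p from 0.0684 to 0.239), without the control library of experiment 1 (0.66, adjusted p = 0.0713), 2 (0.70, 0.132) or 3 (0.58, 0.186), or without the CPA18 library of experiment 2 (0.42, 0.281) or 3 (0.73, 0.0806). Vamp2 Ribo-seq values were 55.2, 50.2 and 78.5 RPKM in control, 86.4, 50.6 and 71.7 in CPA1, and 102, 70.5 and 85.1 in CPA18. The groups overlapped, and the footprint change of 0.45 ± 0.22 (adjusted p = 0.103) lay 0.03 from the median gene. It was called only without the control library of experiment 3 (0.66, adjusted p = 0.0445).

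Snap25, the plasma membrane SNARE that contributes a pair of helices to the bundle, had few mRNA-seq reads, 10 to 96 per library. Its mRNA-seq RPKM was 9.99, 5.73 and 5.14 in control, 9.86, 8.75 and 6.49 in CPA1, and 3.81, 9.58 and 4.46 in CPA18, with overlapping groups. The change was -0.07 ± 0.39 (adjusted p = 0.908, 95% interval -0.83 to 0.70) on library totals and -0.43 with TMM scaling (adjusted p = 0.327). The Ribo-seq RPKM was 37.0, 41.9 and 45.9 in control, 41.0, 55.4 and 38.2 in CPA1, and 62.0, 60.5 and 46.3 in CPA18. Every CPA18 library lay above every control library, experiment 3 by the least, but the change of 0.38 ± 0.25 (adjusted p = 0.245) was no larger than that of the median gene and became 0.01 with TMM scaling. Counted on its most abundant transcript alone, Snap25 had a Ribo-seq change of -0.66 (edgeR adjusted p = 0.306), and of -0.90 against CPA1 (adjusted p = 0.208). That transcript is the upstream-exon one, whose lower share of the Ribo-seq reads in CPA18 is given above, and it held 14 reads over the CPA18 Ribo-seq libraries.

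Stx1a, the syntaxin of the complex, was the gene with the fewest footprints. Its mRNA-seq RPKM was 4.45, 34.6 and 7.35 in control, 3.14, 6.99 and 9.18 in CPA1, and 2.96, 15.7 and 13.4 in CPA18. The control library of experiment 2, whose labels disagree, held 125 Stx1a reads against 5 and 38 in the other controls, 114 of them on 1 of the 2 transcripts. The Ribo-seq RPKM was 2.86, 4.58 and 3.35 in control, 4.42, 2.44 and 4.82 in CPA1, and 5.55, 4.46 and 6.69 in CPA18, on 2 to 9 reads per library, and the groups overlapped. In the added fit the CPA18 change was -0.39 ± 0.36 in mRNA-seq (edgeR adjusted p = 0.427) and 0.68 ± 0.53 in Ribo-seq (adjusted p = 0.356), so a difference was not detectable at this depth.

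Rab27a, the GTPase that recruits granuphilin and other docking effectors, had a Ribo-seq RPKM of 33.8, 24.8 and 26.8 in control, 26.6, 28.4 and 25.8 in CPA1, and 22.7, 18.8 and 12.04 in CPA18, and the CPA18 libraries lay below all others. The fall in CPA18 (log2 -0.77 ± 0.29, edgeR adjusted p = 0.0359) was -1.14 with TMM scaling (adjusted p = 0.00113). The adjusted p was 0.0548 without the block. The call was also lost without any of the experiments (adjusted p from 0.0584 to 0.336), without the Ribo-seq control library of experiment 1 (-0.70, adjusted p = 0.104) or 3 (-0.68, 0.126), and without the CPA18 library of experiment 2 (-0.87, 0.051) or 3 (-0.48, 0.373). Its mRNA-seq RPKM was 25.0, 15.9 and 11.8 in control, 21.9, 16.2 and 12.8 in CPA1, and 11.3, 11.1 and 13.9 in CPA18, lower than control in 2 of 3 experiments. The change was -0.44 ± 0.30 (adjusted p = 0.256) on library totals, and it was called on TMM scaling (-0.78, adjusted p = 0.0195) and with library totals without Ins1, Ins2 and Lars2 (-0.66, adjusted p = 0.0496).

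Rab3a, the other granule GTPase, differed more between experiments than between treatments. Its mRNA-seq RPKM was 44.99, 182 and 148 in control, 52.2, 92.4 and 160 in CPA1, and 55.5, 169 and 165 in CPA18, with experiment 1 lowest in each treatment. The change was 0.08 ± 0.25 on library totals (edgeR adjusted p = 0.831) and changed sign to -0.30 with TMM scaling (adjusted p = 0.241). In Ribo-seq, 78.3, 96.4 and 101 RPKM in control stood beside 78.8, 64.7 and 102 in CPA1 and 79.5, 79.1 and 90.6 in CPA18. The footprint change of -0.16 ± 0.23 (adjusted p = 0.63, 95% interval -0.62 to 0.29) lay 0.58 below the median gene, and it was -0.53 with TMM scaling (adjusted p = 0.0695).

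Vat1l, a relative of the synaptic vesicle protein VAT-1, had an mRNA-seq RPKM of 36.8, 33.8 and 44.4 in control, 35.5, 35.4 and 55.6 in CPA1, and 20.9, 20.5 and 30.1 in CPA18. Its Ribo-seq RPKM was 50.7, 42.1 and 50.0 in control, 55.4, 50.2 and 55.8 in CPA1, and 24.4, 29.6 and 37.5 in CPA18. In both assays all CPA18 libraries lay below all others. The fall was 1.62-fold in mRNA-seq (log2 -0.69 ± 0.26, edgeR adjusted p = 0.0285) and 1.51-fold in Ribo-seq (-0.59 ± 0.22, adjusted p = 0.0339), and it was larger with TMM scaling (-1.03, adjusted p = 0.000369, and -0.96, adjusted p = 0.00034). Without the block it was not called in either assay (adjusted p = 0.0688 in Ribo-seq and 0.404 in mRNA-seq). On library totals both calls were lost without any control library or any CPA18 library of the same assay, with adjusted p from 0.0501 to 0.144 in mRNA-seq and from 0.0506 to 0.194 in Ribo-seq. They were also lost without experiment 1 in both assays (adjusted p = 0.116 and 0.256), without experiment 3 in mRNA-seq (0.191) and without experiment 2 in Ribo-seq (0.0953).

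CPA18 was also compared with CPA1, the step from 1 h to 18 h of CPA. The same 5 genes were called in mRNA-seq, 2 higher and 3 lower, beside 33.8% and 5.77% of all genes. In Ribo-seq Syt4 was higher and Syt13 and Vat1l were lower, beside 18.2% and 5.41% of all genes. Rab27a footprints (-0.68 ± 0.31, edgeR adjusted p = 0.1) were called lower with TMM scaling (-1.02, adjusted p = 0.00848) and by DESeq2 (-0.99, adjusted p = 0.037). With TMM scaling the split over all genes turned from 2343 higher and 400 lower to 1058 and 1092 in mRNA-seq, and from 1262 and 375 to 607 and 714 in Ribo-seq. The footprint changes were 1.67 ± 0.19 for Syt4 (edgeR adjusted p = 1.79e-12), -0.80 ± 0.18 for Syt13 (adjusted p = 0.000259) and -0.77 ± 0.23 for Vat1l (adjusted p = 0.00819). All 3 held without the block (adjusted p = 2.04e-07, 0.011 and 0.0257), and Vat1l was not called without the CPA18 Ribo-seq library of experiment 1 (-0.63, adjusted p = 0.0782). In mRNA-seq the changes were 0.98 ± 0.30 for Syt4 (adjusted p = 0.0048), -1.89 ± 0.47 for Syt7 (adjusted p = 0.000573), -0.84 ± 0.24 for Syt13 (adjusted p = 0.00334), 0.81 ± 0.24 for Vamp2 (adjusted p = 0.00428) and -0.81 ± 0.26 for Vat1l (adjusted p = 0.00709). None of these 5 was called without the block, and with TMM scaling the rises of Syt4 (0.48, adjusted p = 0.134) and Vamp2 (0.33, adjusted p = 0.0783) were not called while Snap25 was called lower (-0.95, adjusted p = 0.0308), as was Rab27a (-0.94, adjusted p = 0.00703). Of single mRNA-seq libraries, CPA18 of experiment 3 ended the calls of Syt4 (0.87, adjusted p = 0.0687), Syt13 (-0.80, 0.0602) and Vat1l (-0.83, 0.0675), CPA1 of experiment 1 that of Syt4 (0.88, 0.0603), CPA1 of experiment 3 that of Vat1l (-0.74, 0.0501) and CPA18 of experiment 2 that of Vamp2 (0.61, 0.0687). Of whole experiments, the first ended the mRNA-seq call of Syt13 (-0.71, adjusted p = 0.106) and the Ribo-seq call of Vat1l (-0.65, 0.114), the second the mRNA-seq calls of Syt7 (-1.55, 0.0843) and Vamp2 (0.51, 0.0818), and the third those of Syt4 (0.86, 0.113), Syt13 (-0.72, 0.137) and Vat1l (-0.78, 0.132). This comparison shares its CPA18 libraries with the comparison against control.

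After 1 h of CPA none of the 8 genes was called. In mRNA-seq 0.505% of all genes were called higher and 0.433% lower, and in Ribo-seq 3.75% and 2.92%, or 35 and 30 and 260 and 202 genes, which became 28 and 0 and 251 and 258 with TMM scaling. By edgeR, DESeq2 and limma alike, 0 of the 8 had an unadjusted p under 0.05 in either assay. The edgeR log2 changes ran from -0.23 ± 0.26 (Rab3a) to 0.36 ± 0.39 (Snap25) in mRNA-seq and from -0.17 ± 0.21 (Rab3a) to 0.29 ± 0.46 (Syt7) in Ribo-seq. Syt4 footprints, which were higher in CPA1 than in control in all 3 experiments, changed by 0.21 ± 0.19 (adjusted p = 0.623, 95% interval -0.16 to 0.59). Stx1a, in the added fit, changed by -0.98 ± 0.39 in mRNA-seq (adjusted p = 0.453), with the control library of experiment 2 above all CPA1 libraries.

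Ribosome occupancy, the Ribo-seq RPKM over the mRNA-seq RPKM, asks whether the ribosome load of a transcript moved apart from its abundance. In control the ratio was highest for Snap25 (6.65 ± 2.67) and Syt4 (6.20 ± 3.24) and lowest for Stx1a (0.410 ± 0.258) and Vamp2 (0.528 ± 0.184). For Syt4 it was 2.49, 7.56 and 8.54 in control, 3.82, 5.02 and 7.94 in CPA1, and 5.86, 8.89 and 12.1 in CPA18, higher in CPA18 than in control within each experiment though the groups overlapped. The interaction of assay and treatment put the CPA18 change of Syt4 at 0.65 ± 0.34 (edgeR adjusted p = 0.571, 95% interval -0.03 to 1.32). For Syt7 on its shortest transcript the change was 1.82 ± 0.82 (adjusted p = 0.494), and on the sum of its transcripts 0.69 ± 0.61 (adjusted p = 0.772). Syt13 had values of 0.932, 0.723 and 0.836 in control, 0.964, 1.19 and 0.707 in CPA1 and 1.08, 0.741 and 1.02 in CPA18, with a change of 0.19 ± 0.30 (adjusted p = 0.901, 95% interval -0.40 to 0.78). Vat1l had 1.38, 1.25 and 1.13 in control, 1.56, 1.42 and 1.003 in CPA1 and 1.17, 1.45 and 1.25 in CPA18 (change 0.09 ± 0.33, adjusted p = 0.97).

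In all 3 comparisons of ribosome occupancy edgeR called 0 of the 8 genes. The calls over all genes were 0.0866% higher and 0% lower for CPA1 against control, 0.462% and 0.0144% for CPA18 against control, and 0.0577% and 0.0144% for CPA18 against CPA1. The number of the 8 with an unadjusted p under 0.05 was 0, 1 and 1 in these comparisons by edgeR, 0, 2 and 2 by DESeq2 and 0, 0 and 0 by limma. The standard errors, from 0.29 to 0.83, leave room for sizeable changes in either direction. Syt4 mRNA and footprints were both called higher in CPA18, but the footprint change was not shown to exceed the mRNA change.

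**Figure D4:**
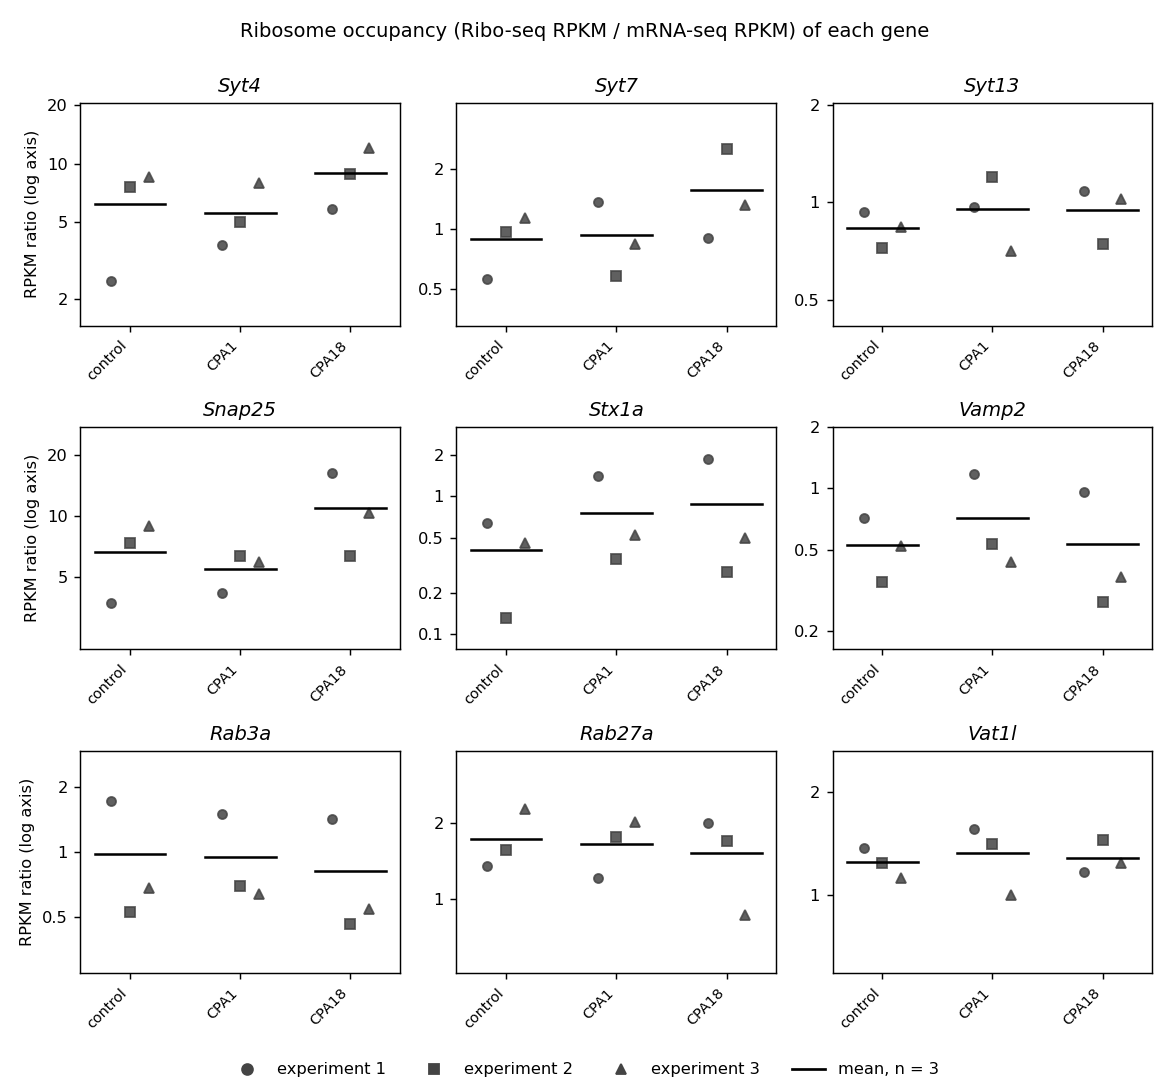
Ribosome occupancy (Ribo-seq RPKM over mRNA-seq RPKM, log axis) of the 9 genes in each experiment, by treatment, with a bar for the mean of 3. The groups of Syt4 overlap, from 2.49 to 8.54 in control and from 5.86 to 12.1 in CPA18.

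Other genes of the exocytic pathway were taken as 5 lists and read in the comparison of CPA18 with control. The lists, like the genes above, were chosen with earlier results of these data known. On library totals, 27% of all genes were called higher and 7.89% lower in mRNA-seq, and 25.6% and 6.25% in Ribo-seq. With TMM scaling the split over all genes, given above, was near even, with more genes called lower than on library totals. The TMM counts of the lists stand beside that split. Of 20 further synaptotagmins, double C2 and extended synaptotagmin genes, 5 were tested. Syt2, Syt11 and Syt14 were lower in mRNA-seq and Esyt1, a tether between the endoplasmic reticulum and the plasma membrane, was lower in Ribo-seq, and none was higher. With TMM scaling all 5 were called lower in mRNA-seq, Esyt1 among them (-0.68, adjusted p = 0.000865), and 2 in Ribo-seq. Syt2, a fast calcium sensor, changed by -1.962 ± 0.41 on the log2 scale (RPKM 6.40 ± 2.49 in control and 1.49 ± 0.360 in CPA18, edgeR adjusted p = 4.63e-05, 0.0428 without the block). Syt11, which does not bind calcium, fell by 0.99 ± 0.35 (adjusted p = 0.0166, 0.226 without the block), and Syt14 by 1.42 ± 0.49 (adjusted p = 0.0162, 0.17 without the block). Syt14 lay under the mean mRNA-seq RPKM of 1 that the naming rule asked for. Footprint changes of Syt2 (-0.57, adjusted p = 0.436), Syt11 (-0.65, 0.198) and Syt14 (-0.46, 0.56) were not called on library totals. That of Syt11 was called with TMM scaling (-1.01, adjusted p = 0.0353). Esyt1 footprints fell by 0.96 ± 0.17 (adjusted p = 1.96e-06, 0.000328 without the block). Syt5 (also called Syt9 in part of the literature), at 87.8 RPKM the highest of the further Syt genes in control mRNA, changed by -0.08 ± 0.26 (adjusted p = 0.838), and by -0.44 with TMM scaling (adjusted p = 0.0321). The median log2 change of the 5 was -0.99 for mRNA and -0.57 for footprints.

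Of 16 further SNAREs, 9 were tested. In mRNA-seq edgeR called 0 of them, DESeq2 called 0 and limma 1, and 1 had an unadjusted p under 0.05 in edgeR. In Ribo-seq Stx7, a SNARE of the endosome, was lower (-1.18 ± 0.34, edgeR adjusted p = 0.00476, 0.0159 without the block). The median log2 change of the 9 was 0.27 for mRNA and 0.34 for footprints. Of 28 regulators of SNARE assembly and priming, 11 were tested, 4 were lower in mRNA-seq and 2 in Ribo-seq, and none was higher in either (median log2 change -0.28 and -0.27). With TMM scaling 5 were lower in each assay. Cplx2, a complexin that clamps the SNARE bundle, fell by 1.67 ± 0.31 in mRNA-seq (17.6 ± 8.89 RPKM in control and 5.04 ± 1.11 in CPA18, adjusted p = 2.15e-06, 0.0771 without the block), while its footprint change was -0.26 ± 0.25 (adjusted p = 0.442). Rims3, of the active-zone RIM family, fell by 1.20 ± 0.30 in mRNA-seq (adjusted p = 0.000741, 0.173 without the block). Its footprint change was -0.45 ± 0.51 (adjusted p = 0.535). Pclo, a scaffold that binds RIM and calcium channels, was lower in both assays (-1.04 ± 0.37, adjusted p = 0.0173, and -1.14 ± 0.34, adjusted p = 0.00674), and only the Ribo-seq call held without the block (adjusted p = 0.0122, against 0.267 in mRNA-seq). Syt5, Syt14, Esyt1 and Stx7, and Rab3d, Exoc2, Exoc4 and Exoc7 below, were named after their values were seen.

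Of 27 further Rab GTPases and effectors, 12 were tested, with 1 higher and 2 lower in mRNA-seq and 2 higher and 3 lower in Ribo-seq (median log2 change 0.12 and -0.16). With TMM scaling 0 were higher and 3 lower in mRNA-seq, and 1 higher and 3 lower in Ribo-seq. The Ribo-seq calls included Rab3d and Rab10, both higher, and Sytl4, lower. The Rab10 footprint call was lost without the block (adjusted p = 0.064) and with TMM scaling (0.23, adjusted p = 0.466). Sytl4, or granuphilin, the effector through which Rab27a docks insulin granules, was lower in both assays (-1.16 ± 0.29, edgeR adjusted p = 0.000619, and -1.14 ± 0.22, adjusted p = 1.53e-05, 82.5 ± 23.9 footprint RPKM in control and 32.3 ± 7.30 in CPA18). The Ribo-seq call of Sytl4 held without the block (adjusted p = 0.000558) and the mRNA-seq call did not (0.158). Rab37, a granule GTPase, fell by 1.39 ± 0.30 in mRNA-seq (adjusted p = 7.43e-05, 0.113 without the block). Its footprint change was -0.35 ± 0.39 (adjusted p = 0.519). Rab10, which serves the traffic of several membranes, rose by 0.80 ± 0.30 in mRNA-seq (adjusted p = 0.0259). The Rab10 mRNA rise was not called with TMM scaling (0.48, adjusted p = 0.121). Of 11 exocyst subunits and Ral GTPases, 9 were tested, and 3 were higher in mRNA-seq, 2 were higher in Ribo-seq (Ralb and Exoc2) and none was lower (median log2 change 0.09 and 0.02), shares near those of all genes. The Exoc2 call was lost with TMM scaling (0.91, adjusted p = 0.063). Rala rose by 1.38 ± 0.36 (edgeR adjusted p = 0.00115), Ralb by 1.05 ± 0.37 (adjusted p = 0.0173) and Exoc3 by 0.95 ± 0.39 (adjusted p = 0.045) in mRNA-seq. None of these mRNA rises was called without the block. In Ribo-seq, Ralb rose by 1.63 ± 0.44 (adjusted p = 0.00247, 0.0057 without the block). Footprints of Rala (-0.67 ± 0.47, adjusted p = 0.282) and Exoc3 (0.02 ± 0.38, adjusted p = 0.985) were not called. Rala and Ralb are close paralogs whose reads the counting could have divided, which was not tested. With TMM scaling, of the mRNA rises of Rala, Ralb and Exoc3 only that of Rala was called (0.99, adjusted p = 0.016). The Ralb footprint rise held with this scaling (1.28, adjusted p = 0.0219). TMM scaling also called Exoc7 mRNA (-0.89, adjusted p = 0.00119) and Exoc4 footprints (-0.88, adjusted p = 0.00848) lower, where the values on library totals were -0.53 (adjusted p = 0.111) and -0.50 (adjusted p = 0.155). In ribosome occupancy edgeR called 0 genes of the 5 lists on library totals, with 2 at an unadjusted p under 0.05 among the Rab genes and 1 in each other list, and limma called 0. Cplx2, which DESeq2 and TMM scaling called higher, changed by 1.405 ± 0.38 (edgeR adjusted p = 0.0698, 0.0472 with TMM scaling). Rala occupancy changed by -2.06 ± 0.58 (adjusted p = 0.0897, 0.095 with TMM scaling).

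Likeness of profile was measured by Pearson's r over the 18 libraries, after the mean of each experiment and assay was removed from log2(RPKM + 0.5), among 4442 genes (4443 for Syt7) with a mean RPKM of at least 5 in both assays, which left out Syt7 and Stx1a as partners. It is a description, since all points share libraries and scaling. Closest to Syt4 were Abcc4 (r = 0.97), Morc2a (0.97) and Ssr3 (0.96). Closest to Syt13 were Cyb5r3 (0.99), Cdhr1 (0.98) and Actb (0.98), and closest to Vat1l were Actg1 (0.97), Blnk (0.96) and Pax6 (0.96). Vamp2 was most like Psmc2 (0.96), Mmadhc (0.96) and Hypk (0.95), and Rab27a most like Pdcd4 (0.88), Marcks (0.87) and Top2a (0.87). The highest values were lower for Rab3a (Rasl2-9 and Haus4, both 0.83, and Cog1, 0.82), Snap25 (Coq7, 0.80, Ube2t, 0.78, and Ldb1, 0.77) and Syt7 (Anp32a, 0.73, Ovol2, 0.72, and Necab2, 0.71), the genes with small changes or few reads.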

How the data were processed

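Poly(A) mRNA-seq and Ribo-seq libraries of MIN6 cells were sequenced by the authors and mapped by Bowtie2 against RefSeq RNA sequences (GRCm38), per the submitters' processing notes and the study's methods. The deposited tables, 1 per experiment, hold for each RefSeq transcript the raw read counts and the deposited RPKM, which the authors scaled to the library total and the transcript length (nucleotides, deposited beside them as other values). Of 30741 transcripts, 30227 matched a RefSeq gene with their version, 478 without it and 36 did not match. RPKM recomputed from counts differed by at most 0.00111 (log2).

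Counts were summed per gene, keeping transcripts that no library lacked (1 read or more in each of 18), and tested with edgeR 4.0.16 (R 4.3.3, quasi-likelihood, library totals, experiment as block, Benjamini-Hochberg over 6929 genes, threshold 0.05). For ribosome occupancy the term tested was the assay by treatment interaction. The block follows the labels, which name each replicate number a batch. Deviations from treatment means of libraries of the same experiment correlated with r of 0.112 to 0.762 in mRNA-seq and 0.0801 to 0.190 in Ribo-seq. Intervals (95%) are normal intervals from the SE. Levels are RPKM summed over all transcripts of a gene.

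The 9 genes and the lists were chosen with earlier results of these data known. From each list, up to 3 genes in each direction were named, by size of the mRNA-seq change of CPA18 against control, among those with an adjusted p under 0.05 and a mean mRNA-seq RPKM of at least 1. The 3 most alike genes were taken by r. Alternatives were limma 3.58.1, DESeq2 1.42.0, TMM, other totals, filters and transcripts, left-out experiments or control libraries, and, chosen after seeing the data, a filter on genes and each single library left out. The scripts were tested on simulated counts. Protein sequences are not used here, and some list genes are not reported here by name. Figures were made with Python 3.11.15 and matplotlib 3.10.9.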

Additional observations from a re-analysis of the deposited data

How the results depend on the processing

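Counts of the tested genes called at 18 h depended on the block and on single experiments. The mRNA-seq count against control, 5 on library totals with the replicate block, was 0 with no replicate block and 3 with no filter, and ran from 2 to 5 when an experiment or library was left out. The mRNA-seq count against CPA1, also 5, was 0 with no replicate block and ran from 2 to 5 with libraries left out. The Ribo-seq count against control, 4, was 2 with no replicate block and 2 with no filter, and ran from 2 to 4 with libraries left out. The Ribo-seq count against CPA1 and the counts for 1 h of CPA and for ribosome occupancy stayed within 1.5 times their values in all alternatives run. No called change of any of the 9 genes changed sign. Without the block 12 calls were lost and none was gained, and the cause was not tested. Over all genes, mRNA-seq calls of CPA18 against control fell from 1874 higher and 547 lower to 99 and 38 without the block. Depth limits Syt7 and Stx1a in Ribo-seq, where counts were as low as 2. Amplified reads need not come from separate molecules.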
